A study of Mus musculus with 26 samples.

Results

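UNC0642 is a small-molecule inhibitor of the histone methyltransferases encoded by Ehmt2 and Ehmt1. It was compared here with saline in the retina of the rd10 mouse, a strain in which rods die because of a mutation in Pde6b, the gene of a subunit of the rod phosphodiesterase. The comparison rested on 4 of the 26 RNA-seq libraries of the series, chosen by their labels: 2 from saline-injected controls and 2 from mice injected with 7.5 mg/kg UNC0642. Both groups were B6.CXB1-Pde6brd10/Jrd10, so the controls carried the same mutation, and both received daily intraperitoneal injections from postnatal day 9 to day 24. Each library was whole retina, and nothing used here says how many animals a library held. All 4 libraries held Xist counts and no counts of 4 Y-linked genes. The question set by the design was whether treatment with this inhibitor goes with changes in gene expression in the degenerating retina. The libraries hold RNA only, so they do not measure chromatin.

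The enzymes of Ehmt2 and Ehmt1 add the first and second methyl groups to lysine 9 of histone H3, marks that go with closed chromatin and silent genes. Rods of the mouse pack most of their heterochromatin into a single central mass as they mature, so these marks have been of interest in rod degeneration. Loss of rods in rd10 mice is accompanied by Müller glia reactivity, by microglial activation and later by loss of cones.

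The 4 libraries held 24289415 and 18570482 counts in the controls and 17909147 and 13732959 in the UNC0642 retinas. A count of 3 corresponded to between 0.123 and 0.219 CPM (counts scaled to the size of each library), which sets the limit of detection, and this limit covers counting error only. The retina was recognisable by its defining transcripts. Gnat1, the rod transducin, stood at 1554 and 1621 CPM in the controls and at 1571 and 2561 CPM with UNC0642. The lens gene Cryaa held 1 and 4 counts in the controls and 6 and 13 counts in the UNC0642 libraries. The libraries of a group were not copies of each other: the chi-square per gene was 10.6 between the controls and 8.80 between the UNC0642 libraries, where sampling noise alone would give about 1.

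The groups were not cleanly separated as whole profiles. The SD over genes of the log2 CPM difference was 0.366 between the 2 controls and 0.386 between the 2 UNC0642 libraries. It was 0.304 between control 1 and UNC0642 replicate 1, less than between the controls themselves. UNC0642 replicate 2 stood furthest out, at 0.482 and 0.480 from the controls, and it was also the shallowest library.

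In the edgeR quasi-likelihood test with Benjamini-Hochberg adjustment, none of 16321 genes passed an adjusted p of 0.05 with a log2 fold change beyond 1, a share of 0 percent. None passed the adjusted p alone either, and the smallest value was 0.128, reached by Fosl1 and Hmga2. At an unadjusted p under 0.05 the test gave 2407 genes, 1297 higher with UNC0642 (7.95 percent) and 1110 lower (6.8 percent). The likelihood ratio test was the test used in the study. Here it called 23 genes higher (0.141 percent of those tested) and 11 lower (0.0674 percent) at both thresholds. The study's own counts for UNC0642 at these thresholds were larger in both directions. Without the fold threshold the test as run here called 98 higher (0.6 percent) and 47 lower (0.288 percent). DESeq2 called 1 higher and 3 lower (Vgf, then C4b, Opn1sw and Aqp4), but its filter left 10442 genes, 29 of the 34 likelihood ratio calls among them, without an adjusted p. With 2 libraries a group the number of calls thus differed with the test used. The 34 genes are described below as likelihood ratio calls, and they and the list members named with them were chosen after their values were seen.

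**Figure D1:**
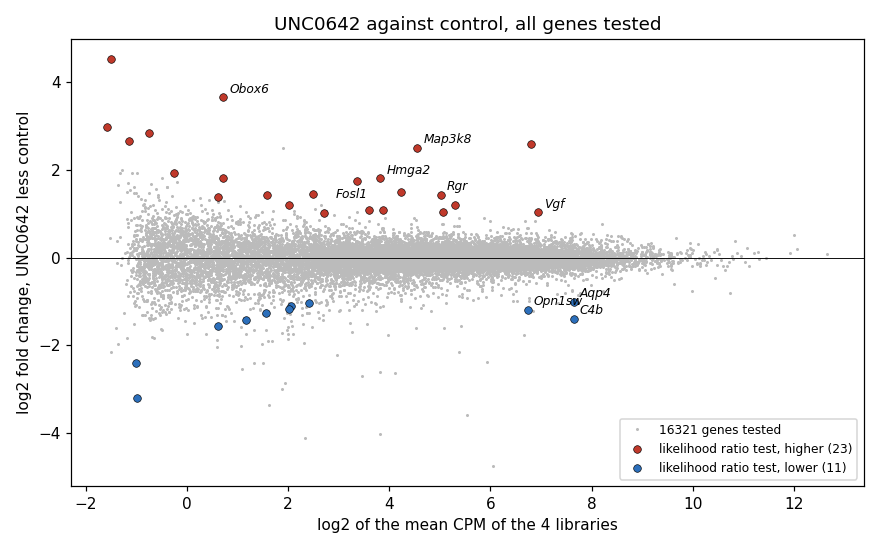
Log2 fold change (UNC0642 less control, vertical axis) against the log2 of the mean CPM of the 4 libraries for the 16321 genes tested (grey points), with the genes called by the likelihood ratio test in red (23 higher) and blue (11 lower). The called genes have a median level of 4.74 CPM against 25.8 CPM over all genes tested, and several grey points with large negative values at middle levels were not called.

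The genes whose products UNC0642 inhibits kept similar transcript levels. Ehmt2 stood at 207 and 196 CPM in the controls and at 202 and 206 CPM with UNC0642 (log2 fold change 0.02, SE 0.07). Ehmt1 stood at 72.6 and 70.8 CPM against 70.8 and 64.5 CPM (log2 fold change -0.08, SE 0.08). Neither passed the quasi-likelihood test (adjusted p = 0.923 and 0.626). Inhibition of an enzyme need not alter its mRNA, so these values check neither the treatment nor the labels. Of 21 enzymes and readers of H3K9 methylation, none passed an adjusted p of 0.05 in either test, and their median log2 fold change was -0.01. Suv39h2, which trimethylates H3K9, had the smallest p among them, with 11.4 and 12.3 CPM in the controls against 17.6 and 18.4 CPM.

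Map3k8, Fosl1, Hmga2, Obox6, Rgr and Tnfrsf12a on the higher side and C4b on the lower side were the 7 of the 34 that this test called whichever of the 4 libraries was left out. Each such fit leaves 1 group with a single library, which is assumed to vary like the other group, and the 34 were chosen as calls from the same libraries, so this describes the calls and gives them no independent support. Leaving out UNC0642 replicate 2 had the strongest effect, since 9 of the 34 calls then remained. For 3 of the 6 higher genes, the 250 bases before the annotated start are printed here, with the matches to the motifs searched in capitals, next to those of Opn1sw, a cone gene described further on. The sequences are RefSeq promoters on GRCm38.p6, read 5′ to 3′ on the strand of the gene. Hmga2 lies at chr10:120476470-120476719 (minus strand), Rgr at chr14:37049015-37049264 (minus), Tnfrsf12a at chr17:23677450-23677699 (minus) and Opn1sw at chr6:29380514-29380763 (minus).
Hmga2: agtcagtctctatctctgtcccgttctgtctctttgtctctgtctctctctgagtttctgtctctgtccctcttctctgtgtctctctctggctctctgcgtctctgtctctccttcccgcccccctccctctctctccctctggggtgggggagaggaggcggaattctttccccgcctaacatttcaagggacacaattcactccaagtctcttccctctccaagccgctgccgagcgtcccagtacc
Rgr: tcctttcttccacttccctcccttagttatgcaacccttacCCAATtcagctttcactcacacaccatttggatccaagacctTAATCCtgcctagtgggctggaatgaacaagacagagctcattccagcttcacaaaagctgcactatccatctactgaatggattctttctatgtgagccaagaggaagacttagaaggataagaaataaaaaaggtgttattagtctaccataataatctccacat
Tnfrsf12a: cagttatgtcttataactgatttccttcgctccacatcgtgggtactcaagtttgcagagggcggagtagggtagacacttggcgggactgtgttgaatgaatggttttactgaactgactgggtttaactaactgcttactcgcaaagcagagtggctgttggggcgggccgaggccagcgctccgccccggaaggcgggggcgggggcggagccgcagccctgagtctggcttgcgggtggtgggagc
Opn1sw: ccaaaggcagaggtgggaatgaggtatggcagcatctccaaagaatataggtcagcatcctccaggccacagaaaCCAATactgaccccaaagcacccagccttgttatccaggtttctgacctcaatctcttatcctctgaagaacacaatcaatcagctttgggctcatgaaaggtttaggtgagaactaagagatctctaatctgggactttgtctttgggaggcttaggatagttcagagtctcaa

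The capitals mark a CCAAT box (CCAAT) and a CRX motif (TAATCC) in Rgr and a CCAAT box in Opn1sw, counted on both strands. The windows of Hmga2 and Tnfrsf12a held none of the 8 motifs searched before the start, which were AP-1 (TGANTCA), CRE (TGACGTCA), E-box (CACGTG), CRX, the amino acid response motif (TGATGNAAT), the sterol motif (TCACNCCAC), EGR (GCGTGGGCG) and CCAAT. Over windows of 300 bases, 250 before and 50 after the start, an AP-1 motif was present in 2 of 14 higher calls with a promoter in the table (14.3 percent) and in 4.96 percent of 10706 tested genes. A CRX motif was present in 2 of 14 higher calls and in 5.63 percent of tested genes, and a CCAAT box in 6 of 14 (42.9 percent) against 38.2 percent. The counts are too small to set the calls apart, and a match is a description of letters only.

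Map3k8 encodes TPL2, a kinase upstream of ERK. It stood at 6.74 and 7.31 CPM in the controls and at 26.7 and 53.4 CPM with UNC0642, so the groups did not overlap, and UNC0642 replicate 2 was the higher. The log2 fold change was 2.50 (SE 0.32), with an adjusted p of 0.224 in the quasi-likelihood test and 3.9e-10 in the likelihood ratio test. On a scale common to all 22 retina libraries, the UNC0642 libraries reached 24.7 and 49.2 CPM, above all 7 control retinas of the other experiments in the same library series (2.48 to 7.02 CPM). The 2 own controls lay inside that range. All ranges over the other controls are on this common scale, and positions relative to them were read on it. With all 22 retinas in one quasi-likelihood fit, Map3k8, Obox6 and Vgf were the genes called, all higher.

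Fosl1 (FRA1, an AP-1 subunit) lies on chromosome 19 at 5447703 to 5455945 in NCBIM37. It stood at 4.60 and 4.82 CPM in the controls and at 15.9 and 15.8 CPM with UNC0642 (log2 fold change 1.75, SE 0.14). The replicates of each group were close to each other and far from the other group. The own controls were themselves high, since the 7 other control retinas ranged from 0.616 to 1.35 CPM where the own controls reached 4.32 and 4.44 on the common scale. Fosl1 overlaps Ccdc85b on the other strand, and whether reads were counted by strand is not given in the sources used here, so reads of the pair cannot be told apart.

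Hmga2, an architectural DNA-binding protein of progenitor cells, had the same pattern, with 6.98 and 5.47 CPM in the controls and 21.8 and 22.3 CPM with UNC0642 (log2 fold change 1.81, SE 0.16). Its level was 0.824 to 1.28 CPM in the 7 other controls, below both own controls. Tnfrsf12a (FN14, the receptor of TWEAK) stood at 27.5 and 20.5 CPM against 50.5 and 60.2 CPM, and at 5.64 to 11.8 CPM in the other controls. For both genes the control retinas of this experiment already stood above those of the others, and the UNC0642 retinas stood further in the same direction.

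Rgr encodes a retinal G-protein-coupled receptor of Müller glia and the retinal pigment epithelium that takes part in the visual cycle. It stood at 14.5 and 20.6 CPM in the controls and at 44.9 and 49.5 CPM with UNC0642 (log2 fold change 1.43, SE 0.17). The 7 other controls spanned 10.2 to 27.2 CPM, so the own controls lay within them and the UNC0642 libraries above. Rpe65, the isomerase of the pigment epithelium, overlapped between the groups (1.48 and 4.49 CPM against 4.97 and 4.08). Over 18 markers of the pigment epithelium the median log2 fold change was 0.07, with 10 above 0. This median was unstable: -0.36 without control 1, 0.77 without control 2, -0.03 without UNC0642 replicate 2 and -0.18 with 9 control retinas as controls. Their summed level was 338 and 514 CPM in the 2 controls. Obox6, an oocyte-specific homeobox gene of a cluster with close copies and hence uncertain in count, held 6 and 4 counts in the controls and 37 and 56 with UNC0642.

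C4b, a complement component whose close copy C4a makes its count uncertain, was the lower call that remained whichever library was left out. It stood at 266 and 314 CPM in the controls and at 123 and 96.7 CPM with UNC0642 (log2 fold change -1.40, SE 0.14). The adjusted p was 0.183 in the quasi-likelihood test and 5.6e-15 in the likelihood ratio test. The other controls spanned 108 to 343 CPM, so the own controls were typical, and 1 UNC0642 library lay inside that range.

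**Figure D2:**
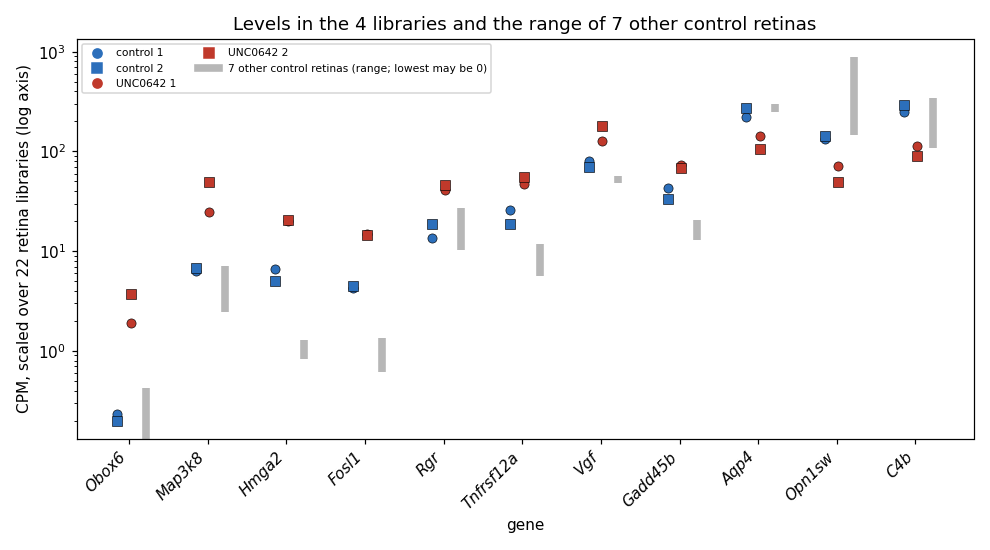
CPM scaled over 22 retina libraries (log axis) of 11 genes in the 2 controls (blue), the 2 UNC0642 libraries (red) and, as grey bars, the range of the 7 other control retinas. The UNC0642 libraries stand above the grey bar from Obox6 to Gadd45b and below it for Aqp4 and Opn1sw, while the controls of Hmga2, Fosl1, Tnfrsf12a, Vgf and Gadd45b stand above it too.

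Over all 23 higher likelihood ratio calls the log2 fold changes ran from 1.01 to 4.53, and over the 11 lower calls from -3.20 to -1.0. In all 34 the groups did not overlap, which held for 26.9 percent (higher) and 25.2 percent (lower) of all genes tested. Both UNC0642 libraries lay beyond all 9 control retinas of the library series for 21 of the 23 higher and 7 of the 11 lower calls. Of all genes tested, 11 percent lay above and 10.9 percent below all 9 in this way, and the calls were chosen for a gap from 2 of the 9. The own controls were not neutral in this. For 11 of the 23 higher calls both own controls lay above all 7 others, and for 3 of the 11 lower calls both lay below them. The reverse held for 2 higher calls (Kif4 and Pgc) and for 3 lower calls (Zfp950, Sirpb1c and Ms4a14). Kif4, a mitotic kinesin, stood on the common scale at 2.54 and 3.04 CPM in the own controls and at 6.93 and 8.32 CPM with UNC0642, where the other controls spanned 6.95 to 12.5 CPM. Pgc with UNC0642 lay inside the range of the others. What part of the differences belongs to these 2 control retinas was not tested.

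A number of the calls were of genes at the edge of detection. Of the 34, 13 had a mean under 3 CPM. Gm15870 held 0 and 1 count in the controls and 14 and 8 counts with UNC0642, Wfdc3 held 1 and 2 against 11 and 8, and Fgf17, a fibroblast growth factor, held 1 and 4 against 16 and 9. Such counts give no useful size of fold change. Among the lower calls Ms4a14 held 20 and 19 counts in the controls and 3 and 0 with UNC0642, and Sirpb1c, one of a family of close copies, held 24 and 13 against 4 and 1. Zfp935 and Zfp950 belong to clustered zinc finger families, and their counts are likewise uncertain.

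The neuropeptide precursor Vgf, a growth-factor-inducible gene, was the most abundant of the 3 genes called in the single fit of 22 retinas. It stood at 85.0 and 75.9 CPM in the controls and at 137 and 194 CPM with UNC0642, on chromosome 5 at 137506165 to 137509221 in NCBIM37. Ednrb, an endothelin receptor of reactive Müller glia, stood at 23.6 and 20.1 CPM against 48.7 and 41.4 CPM. Neurog2, a proneural factor, stood at 9.65 and 5.85 CPM against 15.8 and 17.3 CPM. In the 7 other controls all 3 genes were lower than in either own control.

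The list of immediate-early and growth-factor-response genes held mainly transcription factors and feedback regulators that a stimulus switches on. It also held other induced genes, Vgf among them. Of 45 members tested, none passed the quasi-likelihood test. By the likelihood ratio test 6 passed without the fold threshold, all higher: Fosl1, Junb, Atf3, Myc, Vgf and Nab2. Of all genes, 0.6 percent passed it as higher. The median log2 fold change was 0.31, against -0.00 over all genes, and 38 of the 45 lay above 0. In 28 members both UNC0642 libraries stood above both controls, and in 2 below, where 26.9 and 25.2 percent of all genes did. At an unadjusted quasi-likelihood p under 0.05, 17 were higher and 0 lower, against 7.95 and 6.8 percent of all genes. The median was 0.20 without control 2 and 0.48 with 9 control retinas.

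Junb, an AP-1 subunit, stood at 125 and 98.8 CPM in the controls and at 171 and 176 CPM with UNC0642 (log2 fold change 0.63, SE 0.12). Atf3, a stress-induced factor, stood at 26.1 and 23 CPM against 37.3 and 46.3 CPM. Nab2, a corepressor of EGR proteins, stood at 58.7 and 56.3 CPM against 91.0 and 97.5 CPM. The groups were apart in all 3, and the spread within a group was smaller than the gap between groups.

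Myc, a driver of growth, stood at 12.0 and 6.61 CPM in the controls and at 20.3 and 19.8 CPM with UNC0642 (log2 fold change 1.09, SE 0.26). Fosb stood at 12.3 and 10.2 CPM against 15.6 and 20.0 CPM (log2 fold change 0.66, SE 0.17) and passed neither test. The DNA damage and stress genes Gadd45b and Gadd45a differed in support. Gadd45b stood at 45.6 and 36.6 CPM against 79.0 and 74.5 CPM, with a likelihood ratio adjusted p of 1.2e-06 and a fold change short of the threshold. Gadd45a, at 20.1 and 21.3 CPM against 26.6 and 35.8 CPM, passed neither test. For Fosb, Fosl1, Junb, Myc and Gadd45b both own controls lay above all 7 other controls, as in Junb, where the others spanned 32.2 to 61.3 CPM. Markers of activated glia stood high in the own controls as well: Gfap reached 530 and 922 CPM on the common scale against 168 to 481 in the others.

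These 6 genes were also set beside Romidepsin, a histone deacetylase inhibitor given in the same strain with its own 3 controls and 3 treated retinas. In the fit of the 10 libraries, the Romidepsin log2 fold changes were 3.19 for Fosl1, 2.30 for Junb, 2.50 for Gadd45b, 2.32 for Myc, 1.57 for Fosb and 0.85 for Gadd45a. The UNC0642 effect less the Romidepsin effect was -1.44 (SE 0.57) for Fosl1, -1.67 (SE 0.45) for Junb and -1.60 (SE 0.42) for Gadd45b. It was -1.23 (SE 0.59) for Myc, -0.91 (SE 0.33) for Fosb and -0.27 (SE 0.26) for Gadd45a. For all but Gadd45a, both UNC0642 controls lay above all 7 other controls, the Romidepsin controls among them. The effects compared for those genes thus started from unlike levels. For Gadd45a both UNC0642 controls lay inside the range of the others. In this fit's edgeR quasi-likelihood interaction test the adjusted p values of Fosl1, Junb and Gadd45b were 0.602, 0.432 and 0.418. Those of Myc, Fosb and Gadd45a were 0.656, 0.556 and 0.875. None of 16836 genes passed an adjusted p of 0.05 in that test, against 1329 at an unadjusted p under 0.05 and 59 called at both thresholds by the likelihood ratio test. Kif4 had the smallest adjusted p (0.183), with a Romidepsin log2 fold change of -1.31. A difference between the inhibitors was therefore not established in either sense by the quasi-likelihood test.

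The cone list split. Of 12 cone genes, 3 were lower and 1 higher at an adjusted p of 0.05 in the likelihood ratio test. Among all genes 0.288 percent were lower and 0.6 percent higher. None of the 12 passed the quasi-likelihood test, and their median log2 fold change was -0.23. Opn1sw, the short-wavelength opsin, stood at 142 and 155 CPM in the controls and at 76.4 and 53.3 CPM with UNC0642 (log2 fold change -1.19, SE 0.16). Gnat2, the cone transducin, stood at 111 and 120 CPM against 67.5 and 48.5 CPM. Opn1mw, the middle-wavelength opsin, stood at 88.0 and 84.6 CPM against 58.8 and 54.4 CPM. Pde6c, the catalytic subunit of the cone phosphodiesterase, went the other way, with 167 and 188 CPM against 232 and 294 CPM. In bulk retina fewer cones and less of a transcript per cone cannot be told apart. The own controls already stood below the others for Opn1sw (133 and 142 against 146 to 886 CPM), Gnat2 (104 and 111 against 138 to 224 CPM) and Opn1mw (82.5 and 77.9 against 173 to 247 CPM). With 9 control retinas the median of the list was -0.65. Opn1sw overlaps Calu on the other strand.

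Rod genes lay slightly higher. The median log2 fold change of 40 members was 0.21, with 33 above 0, and none passed an adjusted p of 0.05 in either test. In 19 members the groups were apart on the higher side, as in 26.9 percent of all genes. The size rested on UNC0642 replicate 2, as in Gnat1, where replicate 1 lay between the controls and replicate 2 above both. Without that library the list's median was 0.02. With all 9 control retinas in place of the 2 own ones it was -0.69. On the common scale the other controls held 2787 to 6170 CPM of Gnat1 and the own controls 1458 and 1492 CPM. The direction of the rod list thus turned with the choice of controls.

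Müller glia markers were mostly lower. At an adjusted p of 0.05, 4 of 14 passed the likelihood ratio test, all lower (Apoe, Aqp4, Abca8a and Glul). As lower, 0.288 percent of all genes passed it. None of the 14 passed the quasi-likelihood test, and their median log2 fold change was -0.30. Aqp4, the glial water channel, stood at 236 and 299 CPM in the controls and at 153 and 114 CPM with UNC0642. Apoe, a lipid carrier, stood at 2163 and 2193 CPM against 1367 and 1133 CPM. Rlbp1, the retinaldehyde-binding protein that defines these cells in the retina, overlapped (538 and 577 CPM against 556 and 616). Both own controls already lay below all 7 others for Glul (926 and 1418 against 2555 to 3975 CPM), Abca8a (163 and 216 against 305 to 436 CPM), Apoe and Rlbp1. The summed level of the list was 10137 and 10385 CPM in the own controls on the common scale, 7874 and 8450 CPM with UNC0642 and 12095 to 14312 CPM in the others. With 9 control retinas the median was -0.17. Among 22 gliosis genes, Vim, Nes and Ednrb passed the likelihood ratio test as higher and C4b as lower. Of all genes, 0.6 percent passed it as higher and 0.288 percent as lower. Gfap, at 565 and 1001 CPM in the controls against 579 and 786 CPM, overlapped. The list was therefore mixed, with a median of 0.05, which ran from -0.05 to 0.25 without 1 library. With 9 control retinas it was 1.24, and the summed level was 6189 and 7202 CPM in the own controls, 5613 and 7046 CPM with UNC0642 and 1696 to 3830 CPM in the others.

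**Figure D3:**
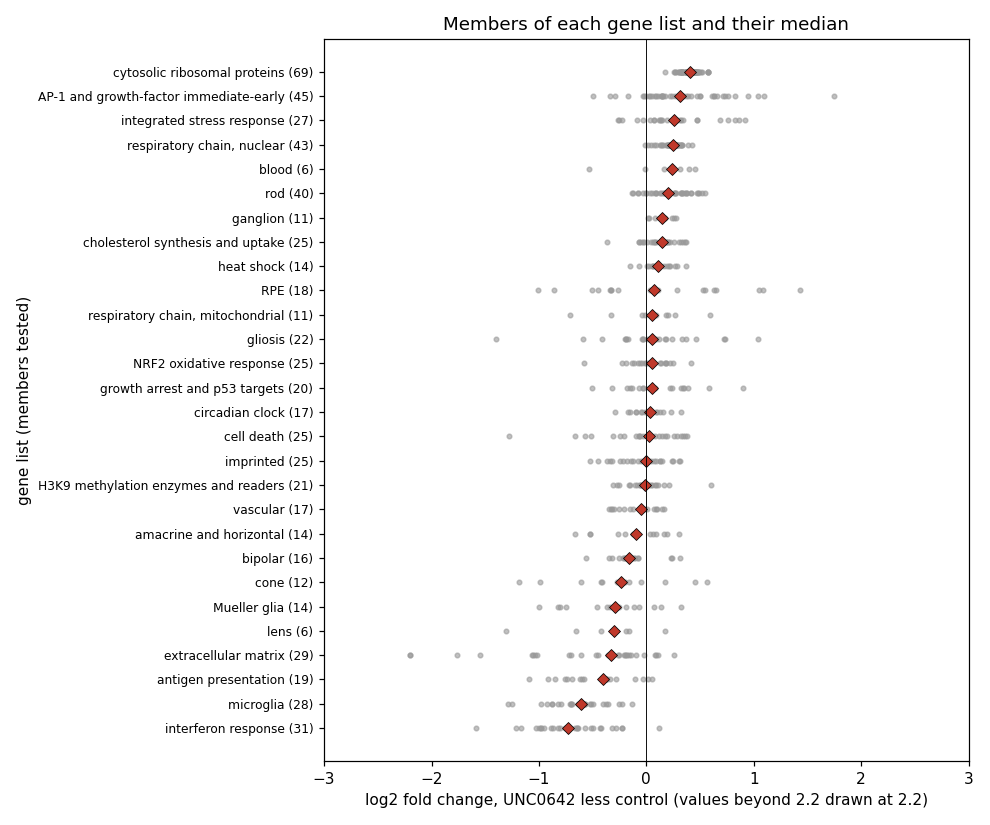
Log2 fold change (UNC0642 less control) of each tested member of 28 gene lists (grey points) and the median of each list (red diamonds), with the number of members in brackets and values beyond the limit named on the axis drawn at that limit. Cytosolic ribosomal proteins have the highest median, 0.41, and the interferon response the lowest, -0.73.

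All 28 microglia markers had log2 fold changes below 0, with a median of -0.60. Of the 16321 genes tested, 8212 lay below 0. At an unadjusted quasi-likelihood p under 0.05, 13 markers were lower, against 6.8 percent of all genes. The list's median was -0.32 without control 1, -0.96 without UNC0642 replicate 1 and -0.0042 with 9 control retinas. In the likelihood ratio test 3 passed, all lower, Trem2 and C1qa among them, against 0.288 percent of all genes. Trem2, a lipid receptor of activated microglia, stood at 24.1 and 19.4 CPM in the controls and at 13.2 and 11.8 CPM with UNC0642. Aif1 overlapped, at 13.2 and 7.64 CPM against 7.76 and 6.05 CPM. The summed level of the list differed between the controls of the series as well. It was 1066 to 1592 CPM in the own controls, 644 to 1034 CPM with UNC0642 and 398 to 1206 CPM in the 7 other controls.

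Interferon-response genes had the lowest median, -0.73 over 31 members, and antigen presentation genes stood at -0.40 over 19. In neither list did a gene pass an adjusted p of 0.05 in either test, and the groups were apart on the lower side in 5 and 2 members, where 25.2 percent of all genes were. Control 1 carried the highest levels. Isg15, an interferon-induced ubiquitin-like protein, stood at 56.9 and 23.9 CPM in the controls and at 31.0 and 12.3 CPM with UNC0642. Without control 1 the interferon median was -0.13 and that of antigen presentation -0.067, and with 9 control retinas they were -0.01 and 0.080.

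Extracellular matrix genes had a median of -0.33 over 29 members, and here control 2 carried the highest levels. Fbln1, a matrix glycoprotein, stood at 5.51 CPM in control 1, 251 CPM in control 2 and 4.35 and 5.24 CPM with UNC0642. Without control 2 the median was -0.08, and with 9 control retinas -0.03. More widely, 21 genes had a log2 fold change below -2, and in 16 of them control 2 exceeded control 1 by more than 4-fold, with 0.5 CPM added to each. They included Mfap4, Ltbp2, Optc, Ogn and Dcn, all of matrix proteins. Fbln1 spanned 3.35 to 292 CPM over the 7 other controls, so this kind of spread was present in the control retinas of the series too. They are the grey points far below 0 in the plot of fold changes against level.

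The most uniform list was that of the cytosolic ribosomal proteins, the protein components of both ribosomal subunits. All 69 had log2 fold changes above 0, from 0.17 to 0.57, with a median of 0.41. In 68 of them both UNC0642 libraries stood above both controls, against 26.9 percent of all genes. At an adjusted p of 0.05, 0 passed by quasi-likelihood and 14 by likelihood ratio, where 0.6 percent of all genes were higher. At an unadjusted quasi-likelihood p under 0.05, 68 were higher, against 7.95 percent of all genes. Their summed level was 9549 CPM or less in the own controls on the common scale, 10938 and 12968 CPM with UNC0642 and 7047 to 9660 CPM in the 7 other controls. Rplp1, an acidic stalk protein, stood at 329 and 304 CPM in the controls and at 411 and 487 CPM with UNC0642.

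Nuclear genes of the respiratory chain followed at lower amplitude, with a median of 0.25 and 42 of 43 above 0. The groups were apart on the higher side in 39, against 26.9 percent of all genes. Without UNC0642 replicate 2 the list's median was 0.13. Only Atp5e passed the likelihood ratio test, where 0.6 percent of all genes were higher. The 11 tested mitochondrial genes of the chain had a median of 0.05. Integrated stress response genes had a median of 0.26, with 22 of 27 above 0. Atf4, the transcription factor at the centre of that response, stood at 222 and 215 CPM in the controls and at 320 and 421 CPM with UNC0642. Without UNC0642 replicate 2 the median of this list was 0.02, and with 9 control retinas 0.45.

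The ribosomal and respiratory lists held short genes, with median exon lengths of 1464 and 1231 bases against 3467 over all genes. Fold changes fell with gene length across the whole transcriptome. The 16270 genes with a known length were split into 10 equal bins. In the bin of the shortest genes (53 to 1138 bases of exon), the median log2 CPM difference between UNC0642 and control was 0.21, and 73.8 percent of the genes lay above 0. In the bin of the longest genes (7937 bases and over) it was -0.13, and 18.9 percent lay above 0. The medians fell from each bin to the next. Spearman's correlation across genes was -0.35, given as a description because genes are not replicates and share the libraries and their depth.

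GC content showed the opposite slope. The median difference rose from -0.15 in the bin with the lowest GC (30.3 to 41.8 percent) to 0.07 in the bin with the highest (57.9 percent and over), with a Spearman correlation of 0.26. Length and GC were themselves related (Spearman correlation -0.24). In a joint linear fit the slope was -0.06 log2 units per doubling of length and 0.08 per 10 percentage points of GC, against -0.08 and 0.11 when each was taken alone. Within each of 5 equal bins of GC, the median fell from the shortest to the longest of 5 length bins, for example from 0.17 to -0.06 in the bin with the highest GC. In 3 equal bins of mean level, from low to high, the length slope was -0.09, -0.10 and -0.10.

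**Figure D4:**
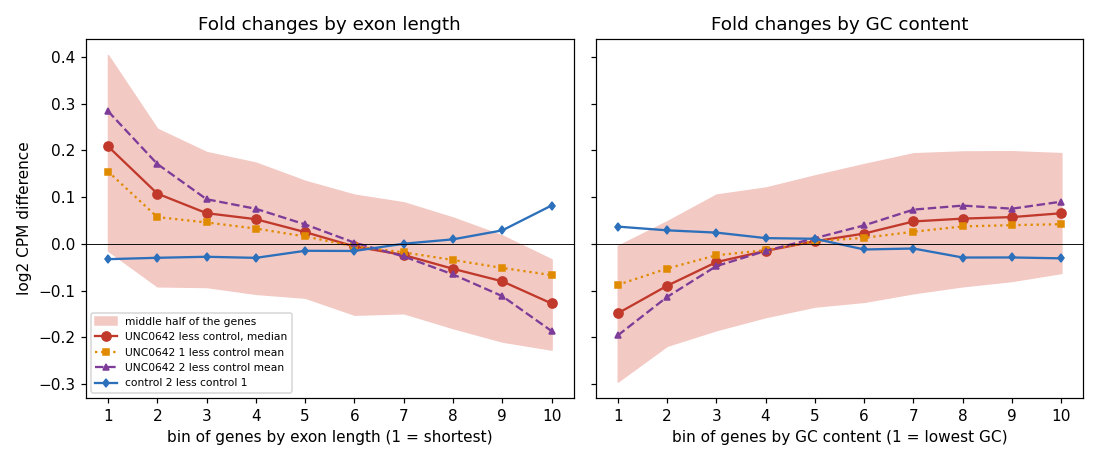
Median log2 CPM difference (vertical axis) in 10 equal bins of genes by exon length (left) and GC content (right), for UNC0642 less control (red, with the middle 50 percent of genes shaded), each UNC0642 library less the control mean, and control 2 less control 1 (blue). Both UNC0642 libraries fall with length and rise with GC, replicate 2 more steeply. Control 2 less control 1 rises with length and falls with GC by a smaller amount, and control 1 less control 2 would have the reverse sign.

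Each library was also taken alone, as the slope of its log2 CPM less the mean of the 4 libraries. The length slopes were 0.02 and 0.05 in the controls and -0.01 and -0.06 with UNC0642, per doubling of length. The difference of the group means was -0.08, with a pooled SD of 0.03. It shrank to -0.038 with no filter on low values and to -0.036 when genomic length replaced exon length. The GC slopes were -0.04 and -0.07 against 0.01 and 0.10 per 10 percentage points, a difference of 0.11 with a pooled SD of 0.04. The groups did not overlap for either slope. The exact two-sided permutation test gave p = 0.333 for both, the smallest that 2 libraries against 2 allow.

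The slopes of the other retina libraries show how far a library can stand from the rest. Over the 22 retinas, relative to their common mean, the length slopes were -0.09 and -0.13 for UNC0642 and -0.05 and -0.02 for its controls. The other 18 retinas spanned -0.19 to 0.11. One of them, Romidepsin replicate 2, had a steeper negative slope than both UNC0642 libraries and a GC slope of 0.31, above both. Control 3 of Romidepsin, a saline retina, had slopes of -0.08 and 0.10, near those of UNC0642 replicate 1. The retinas of UNC1999, prepared in another library series, all had positive length slopes. Slopes of this size thus occurred in retinas without UNC0642, and the part of library composition in the trend was not tested.

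**Figure D5:**
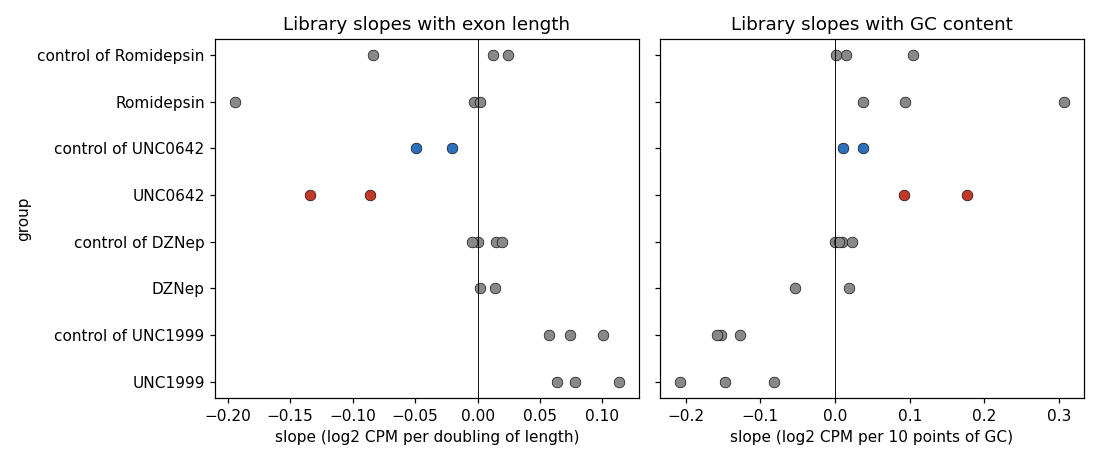
Slope of each of 22 retina libraries with exon length (left, log2 CPM per doubling of length) and GC content (right, log2 CPM per 10 percentage points), by group, with UNC0642 in red and its controls in blue. UNC0642 lies to the left for length and to the right for GC, within the range spanned by the grey points of the other groups.

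When smooth trends with GC and length were taken out of each library, the ribosomal median was 0.30, with all 69 genes still above 0, and the nuclear respiratory chain median was 0.10, with 41 of 43 above 0. The immediate-early median was 0.22, with 38 of 45 above 0. The microglia median was -0.68 and the rod median 0.26. The likelihood ratio test then called 25 genes higher and 12 lower, 31 of them among the 34. The 34 calls were not confined to short genes, since their exon lengths ran from 644 to 6772 bases. Their median was 2542 bases, below the 3467 of all genes tested, and none lay in the longest bin (7937 bases and over).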

How the data were processed

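RNA was extracted from whole retinas and sequenced with a stranded poly(A) protocol. The values used are the raw read counts per gene deposited by the authors, made with BBDuk, HISAT2 2.2.1 on NCBIM37 (mm9, Ensembl gene models) and HTSeq 0.11.2. Whether reads were counted by strand is not given in the sources used here. The table held 37991 genes, of which 37205 were matched by identifier to the NCBIM37 annotation for symbol, position, exon length and GC content.

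Samples were grouped by the labels. Counts of 4 libraries were filtered with filterByExpr, scaled by TMM and tested with edgeR 4.0.16 (R 4.3.3) in the quasi-likelihood test, with Benjamini-Hochberg adjustment over 16321 genes and calls at an adjusted p below 0.05 with a log2 fold change beyond 1 in either direction. SE values come from that fit, and those of the differences from Romidepsin come from the fit of 10 libraries. Each is the absolute log2 fold change divided by the square root of the F statistic of the test. The likelihood ratio test of the study and DESeq2 1.42.0 were alternatives, as were those described in the closing section. The labels call the replicates biological and say no more on how they arose. P-values measure the spread between these libraries only. The interaction with Romidepsin used 10 libraries. The levels in the 7 other controls (3 of Romidepsin and 4 of DZNep) were CPM scaled over 22 retina libraries. Trends used log2 CPM with a prior count of 2. The fits were tested on simulated data. Named genes were Ehmt1, Ehmt2, the 6 genes the study names for UNC0642 and Romidepsin, cell type markers and, by the likelihood ratio test, called genes and list members, because the quasi-likelihood test called none. The members and lists were chosen with earlier results of these data known. A few items are not reported here.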

Additional observations from a re-analysis of the deposited data

How the results depend on the processing

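The count of genes called by the quasi-likelihood test, 0 in either direction, depended strongly on the processing. It was 0 with RLE normalization, with at least 10 counts in every library, with GC or length offsets or both, and with no fold threshold. It became 41 higher and 132 lower with no filter on low counts, 124 and 69 with 9 control retinas as controls, and 3 and 0 with all 22 retina libraries in one fit. DESeq2 called 1 and 3, and the likelihood ratio test 23 and 11. Leaving out each library gave 0 to 13 higher and 0 to 72 lower calls by the quasi-likelihood test, the most without control replicate 1. By the likelihood ratio test (chosen after seeing the data) it gave 10 to 42 and 1 to 187, and with GC and length offsets 25 and 12. The cause of these shifts was not tested.

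The replicate numbers of the labels do not tie the samples to a shared animal or day. The deviations of same-numbered libraries from their group means correlated at 0.213 across genes. The replicate block gave 30 higher and 94 lower calls by the quasi-likelihood test, 19 and 23 with GC and length offsets too, and 48 and 122 by the likelihood ratio test (chosen after seeing the data). With the block, 150 of 649 list genes passed an adjusted p of 0.05 in the quasi-likelihood test. Over all 16321 genes, 244 passed as higher and 345 as lower. With the block, 1 gene was called in the interaction with Romidepsin.

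List genes at an adjusted p under 0.05 numbered 0 in the quasi-likelihood test, 40 in the likelihood ratio test, 156 with 9 control retinas, and 0 to 30 without 1 library, 2 of them without control replicate 2. The interaction called 0 genes, 59 by the likelihood ratio test, 3 in one fit of 22 retinas, and 0 to 3 without 1 library, the 3 without control replicate 1. The length slope was -0.075 per doubling and moved to -0.038 with no filter on low values and to -0.036 with genomic length. Without 1 library it ran from -0.10 to -0.05, and the GC slope, 0.11, from 0.07 to 0.15.

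Signs turned for 6 genes that passed neither test, the furthest from 0 being Rpe65 (0.63), Aif1 (-0.59) and Gfap (-0.20). Ehmt1 was 0.034 with length offsets, 0.0081 with GC and length offsets and 0.0079 with the block added. Ehmt2 was -0.050 with GC offsets and -0.021 to 0.056 without 1 library. With 9 controls Gfap was 0.82, Aif1 0.070, Rlbp1 -0.19 and Rpe65 -0.29. Without 1 library Gfap ran from -0.55 (without control replicate 1) to 0.27 (without control replicate 2), and Rlbp1 from -0.0052 (without UNC0642 replicate 2) to 0.14. Depth limits the low calls, where a count of 3 is 0.123 to 0.219 CPM.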
